A study of Mus musculus with 24 samples.

Results

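The 10 genes described here carry ions across the cell membrane and fall into 3 families: the acid-sensing channels Asic1, Asic2, Asic3 and Asic4, the melastatin-type channels Trpm2, Trpm4 and Trpm7, and the sodium-calcium exchangers Slc8a1, Slc8a2 and Slc8a3. They were listed by name, as routes of ion entry and calcium exchange in ischemic neurons. All 10 were found among the 53465 genes of the count files, and all 10 passed the filter on low counts that 18425 genes passed.

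The counts come from whole-tissue RNA of the brain of 12 mice, 6 of the wild-derived inbred strain CAST/EiJ (CAST below) and 6 of the wild-derived inbred strain WSB/EiJ (WSB below). The study compared these strains because their infarcts after occlusion of the middle cerebral artery differ in size. The labels give no age, sex, surgery, treatment, genetic modification or dissection for either strain, so the values are levels in animals for which no ischemia is stated. Every animal was sequenced on lanes 5 and 6, and the lane files were summed per animal.

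Acid-sensing channels are sodium channels that open when the fluid outside a neuron turns acid, as it does when ischemic tissue makes lactic acid. Trpm channels pass cations and answer to oxidative stress, to calcium inside the cell or to magnesium. Sodium-calcium exchangers use the sodium gradient to move calcium out of the cell, and run the other way when sodium builds up inside.

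Reads in genes numbered 38771135 to 46513232 per CAST animal and 32982569 to 45772849 per WSB animal. Of the 8 neuron markers checked, 7 were detected and 0 were called different between strains by edgeR, with 1 at an unadjusted p under 0.05 and 0 by DESeq2 or limma voom. Tubb3 was listed at 0 in every animal, as were the astrocyte marker Gfap and the microglial markers P2ry12 and Itgam. A pair of libraries stood apart in brain region genes. Cbln3, a gene of cerebellar granule cells, was at 344 CPM (reads scaled by the library's total and its TMM factor) in CAST_142 and at most 11.9 CPM in any other animal. Doc2g, a gene of olfactory bulb neurons, was at 13.9 CPM in WSB_100, against 0.536 CPM in the lowest WSB animal and a WSB median of 1.41 CPM. Several strain differences below are therefore also given without CAST_142 and WSB_100. In whole tissue, fewer cells of a type and less RNA per cell cannot be told apart.

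The promoter sequences of the genes the results turn on are shown first, for Trpm2 and Asic3, which differed between the strains, and for Trpm7, which served as the denominator for Trpm2. They are the mouse reference sequence before the RefSeq transcription start (GRCm38.p6), so strain variants are not in them, and they leave out every base that GENCODE M21 places in an exon. Capitals mark CG dinucleotides, and each sequence runs 5′ to 3′ on the strand of its gene. The Trpm2 stretch is chr10:77969873-77970122 on the minus strand, the Asic3 stretch chr5:24413201-24413391 on the plus strand, and the Trpm7 stretch chr2:126876262-126876511 on the minus strand. The Trpm2 stretch lies inside the GENCODE M21 gene body, which starts upstream of the RefSeq start, but outside its exons.
Trpm2: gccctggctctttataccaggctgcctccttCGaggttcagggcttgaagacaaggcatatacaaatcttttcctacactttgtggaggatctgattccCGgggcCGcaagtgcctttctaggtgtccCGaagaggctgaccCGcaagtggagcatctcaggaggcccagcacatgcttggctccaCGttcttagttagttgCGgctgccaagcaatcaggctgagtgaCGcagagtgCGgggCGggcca
Asic3: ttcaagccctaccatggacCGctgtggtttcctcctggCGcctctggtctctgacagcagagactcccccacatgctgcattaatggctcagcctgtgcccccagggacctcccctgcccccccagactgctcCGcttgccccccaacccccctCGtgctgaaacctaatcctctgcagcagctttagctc
Trpm7: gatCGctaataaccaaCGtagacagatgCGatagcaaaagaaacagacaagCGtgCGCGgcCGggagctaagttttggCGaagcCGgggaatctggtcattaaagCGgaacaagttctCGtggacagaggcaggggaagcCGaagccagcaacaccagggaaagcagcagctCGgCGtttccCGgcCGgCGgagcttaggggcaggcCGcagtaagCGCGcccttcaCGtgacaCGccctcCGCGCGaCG

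Among the 32851 RefSeq mouse promoters, the median number of CG dinucleotides in the 250 bases before the start was 6, with quartiles of 2 and 16. Trpm7 had 26, above the upper quartile, Trpm2 had 10 and Asic3 had 5 in that window. The windows of the other matched genes held 5 for Asic1, 8 for Slc8a1, 9 for Slc8a2 and 11 for Slc8a3, and 14 and 9 for the 2 starts of Asic2. In all, 8 of the 10 genes matched the promoter table, and Asic4 and Trpm4 did not. Trpm2 carried the GC box GGGCGG, searched on both strands, which was in 32.7% of all promoter windows. It also carried TATAAA, but on the strand opposite to its gene (tttata as printed). Searched on both strands, TATAAA was in 12.4% of all promoter windows. Neither run of letters was in the Asic3 or Trpm7 windows.

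Trpm2 and Trpm4 were higher and Asic3 was lower in CAST brain, and the other 7 genes were not called different. With edgeR's quasi-likelihood test and a Benjamini-Hochberg adjusted p under 0.05, 3 of the 10 genes were called, against 42.7% of all genes tested. The 2 called higher in CAST stand against 21.5% of all genes, and the 1 called lower against 21.2%. Trpm2 alone had strain ranges that did not overlap, a pattern found at 27.1% of all genes tested. The median size of the log2 difference was 0.13 over the 10 genes and 0.22 over all genes tested. Calls in this set were thus no more frequent than in the transcriptome at large.

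**Figure D1:**
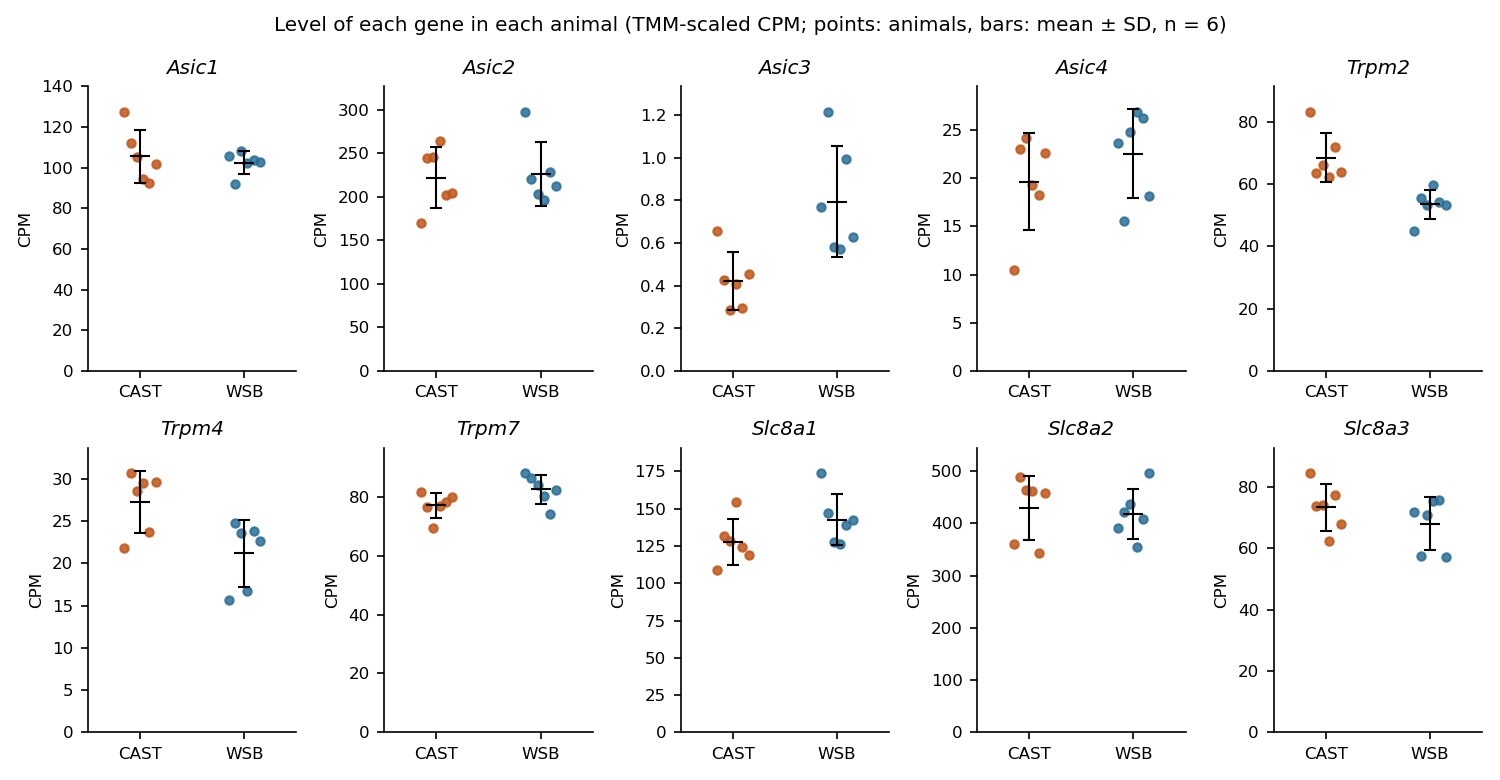
Level of each of the 10 genes in TMM-scaled CPM (vertical axes, each from 0), with 1 point per animal, CAST left and WSB right, and bars for mean ± SD (n = 6). All 6 CAST points of Trpm2 lie above all 6 WSB points, and in every other gene the strains overlap.

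Asic1 encodes the main pore subunit of the acid-gated current of central neurons. Its lowest, median and highest levels were 92.4, 103.5 and 127 CPM in CAST, against 91.9, 103.3 and 108 CPM in WSB. The strains overlapped, and CAST_142 and CAST_170, at 127 and 112 CPM, were above every WSB animal. The log2 difference was 0.042 (95% interval -0.11 to 0.20, edgeR adjusted p = 0.674), and it was -0.022 without CAST_142.

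Asic2, which joins Asic1 in mixed channels and tunes them, was at 170, 224 and 264 CPM in CAST and at 196, 216 and 297 CPM in WSB (lowest, median and highest). The extremes were the 2 libraries that stood apart, CAST_142 lowest of all 12 animals and WSB_100 highest. Its log2 difference was -0.030 (95% interval -0.29 to 0.23, edgeR adjusted p = 0.862). It was 0.032 without CAST_142, 0.059 without WSB_100 and 0.13 without both, so its direction was not fixed.

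Asic3, best known from sensory neurons of the dorsal root ganglia, was scarce in brain. The 6 CAST animals had 12, 12, 15, 20, 21 and 29 reads, and the 6 WSB animals had 19, 27, 27, 30, 38 and 48. Scaled for depth, it was at 0.285, 0.415 and 0.655 CPM in CAST, against 0.573, 0.699 and 1.21 CPM in WSB (lowest, median and highest). In 5 of 6 CAST animals the level was below that of every WSB animal, and CAST_142 was the exception. The log2 difference was -0.90 (SE 0.25, 95% interval -1.45 to -0.36, edgeR adjusted p = 0.0105), and without CAST_142 and WSB_100 it was -1.08. The lanes gave different calls. Lane 5 gave 49 reads in CAST and 96 in WSB in all, with a log2 difference of -1.05 (edgeR adjusted p = 0.0108). Lane 6 gave 60 and 93, with a log2 difference of -0.75 that was not called (edgeR adjusted p = 0.113).

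Asic4, a family member that forms no acid-gated current by itself, was at 10.4, 20.96 and 24.2 CPM in CAST and at 15.6, 24.2 and 26.9 CPM in WSB (lowest, median and highest). CAST_142 was again lowest, and 3 WSB animals were above every CAST animal. Its log2 difference of -0.20 was not called (95% interval -0.61 to 0.21, edgeR adjusted p = 0.434). It was -0.071 without CAST_142 and -0.057 without CAST_142 and WSB_100.

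Trpm2, a calcium-permeable channel opened by ADP-ribose together with calcium and known for its part in oxidative stress, gave the clearest difference of the 10 genes. It was at 62.4, 63.6, 63.8, 66.3, 71.9 and 83.3 CPM in the 6 CAST animals, against 45.0, 53.5, 53.5, 54.2, 55.5 and 59.6 CPM in the 6 WSB animals. Every CAST animal was above every WSB animal. The level was 1.28-fold higher in CAST (95% interval 1.14 to 1.44, log2 difference 0.36, SE 0.079, edgeR adjusted p = 0.00241). CAST_142 was the highest and WSB_100 the lowest of the 12, and without both the log2 difference was 0.24 (edgeR adjusted p = 0.000771). Each lane alone gave the same call, with log2 differences of 0.37 on lane 5 and 0.34 on lane 6.

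Microglia are among the cells known to express Trpm2. Of 6 tested microglial markers, 4 were called lower (Aif1, Tmem119, C1qa and C1qb) and 0 higher, against 21.2% of all genes tested called lower. Of the 6, 4 had an unadjusted p under 0.05 and 4 were called by DESeq2 and by limma voom. Cx3cr1 and Csf1r were not called (edgeR adjusted p = 0.600 and 0.946). The summed level of the list was 103 to 181 CPM in CAST, the lowest being CAST_142, and 171 to 191 CPM in WSB. Without CAST_142 and WSB_100, the same 4 markers were called lower and 0 higher. Cerebellar markers were 117 to 1090 CPM in sum in CAST, the highest being CAST_142, and 108 to 146 CPM in WSB, with Cbln1 and Pcp2 listed at 0. The part of either marker list in the Trpm2 difference was not tested.

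Trpm4, a channel for sodium and potassium that opens on internal calcium, was at 21.8, 29.0 and 30.7 CPM in CAST and at 15.6, 23.2 and 24.8 CPM in WSB (lowest, median and highest). The strains overlapped, since CAST_142 and CAST_202 at 21.8 and 23.7 CPM were below the highest WSB animal, and 4 of 6 CAST animals were above it. The level was 1.29-fold higher in CAST (95% interval 1.06 to 1.56, log2 difference 0.36, SE 0.13, edgeR adjusted p = 0.0344). This call was near its threshold: it was lost without CAST_170, CAST_200, CAST_201, CAST_203, WSB_100 or WSB_138, each left out in turn, where the log2 difference was 0.33, 0.35, 0.34, 0.34, 0.28 and 0.30 and the edgeR adjusted p 0.0617 to 0.0732. Without CAST_142 and WSB_100 together it was called, at 0.34 (edgeR adjusted p = 0.0167).

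Trpm7, a channel joined to a kinase domain that admits magnesium, calcium and zinc, varied little between animals, with a coefficient of variation of 5.44% in CAST and 6.01% in WSB. It was at 69.4, 77.6 and 81.5 CPM in CAST, against 74.1, 83.2 and 87.9 CPM in WSB (lowest, median and highest). No CAST animal was above the WSB median, yet only 4 of 6 WSB animals were above every CAST animal. The log2 difference was -0.098 (95% interval -0.20 to 0.0087, edgeR adjusted p = 0.130), and without WSB_147, the lowest WSB animal, it was -0.13 and called (edgeR adjusted p = 0.041).

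Slc8a1, the exchanger first known from heart muscle, was at 109, 126 and 155 CPM in CAST and at 127, 141 and 174 CPM in WSB (lowest, median and highest). In 3 CAST animals it was below every WSB animal. Its log2 difference was -0.16 (95% interval -0.35 to 0.033, edgeR adjusted p = 0.170). The value moved with single animals: it was -0.23 and called without CAST_201, the highest CAST animal (edgeR adjusted p = 0.0415), and -0.059 without CAST_142 and WSB_100.

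Slc8a2, the exchanger of brain neurons, was at 344, 460 and 489 CPM in CAST, against 354, 415 and 495 CPM in WSB (lowest, median and highest). Its ranges covered each other nearly whole. The log2 difference was 0.039 (95% interval -0.18 to 0.26, edgeR adjusted p = 0.781), and it was -0.0058 without WSB_138.

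Slc8a3, an exchanger expressed in brain and skeletal muscle, was at 62.3, 73.8 and 84.4 CPM in CAST and at 57.0, 71.2 and 75.7 CPM in WSB (lowest, median and highest). CAST_142 and CAST_202 were above every WSB animal, and 2 WSB animals were below every CAST animal. The log2 difference was 0.11 (95% interval -0.085 to 0.30, edgeR adjusted p = 0.359). By edgeR, 0 of the 3 exchangers were called, against 42.7% of all genes tested, and 3 genes are too few to be told apart from that share. Of the 3, 0 had an unadjusted p under 0.05, and 0 were called by DESeq2 or limma voom. The intervals still allow a fold change of 0.782 to 1.02 for Slc8a1, 0.884 to 1.20 for Slc8a2 and 0.943 to 1.23 for Slc8a3.

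**Figure D2:**
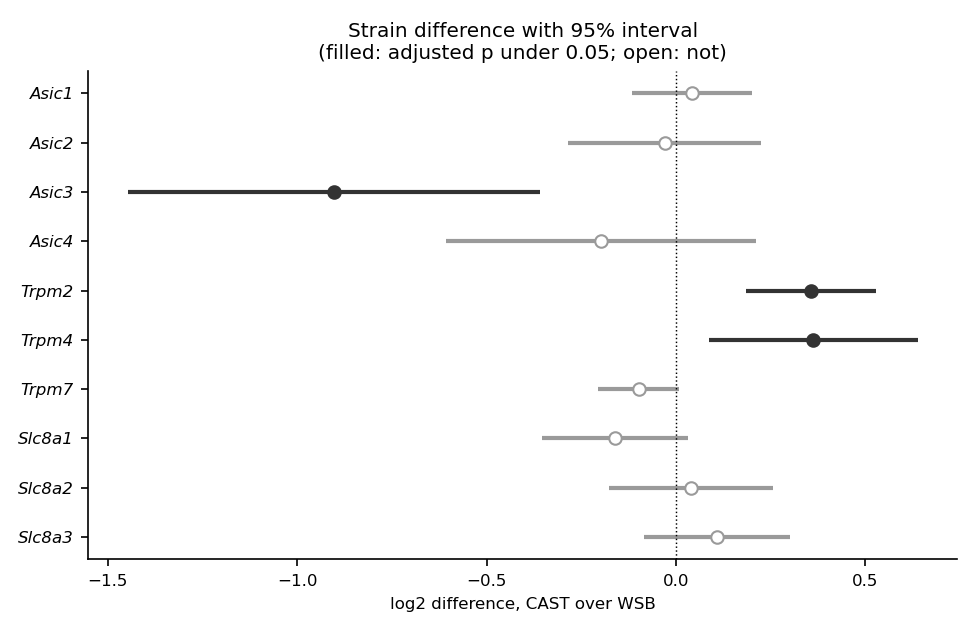
Strain difference of each gene as log2 CAST over WSB (horizontal axis) with its 95% interval, where filled points mark an edgeR adjusted p under 0.05. Trpm2 and Trpm4 lie right of 0 and Asic3, with the widest interval (-1.45 to -0.36), lies left of it.

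The spread between animals was uneven over the 10 genes. It was widest for Asic3, with a coefficient of variation of 32.1% in CAST and 32.8% in WSB, and next for Asic4, with 25.8% in CAST and 20.5% in WSB. For the remaining genes except Trpm7 it was 10.4% to 15.8% in CAST and 5.46% to 18.6% in WSB. CAST_142 was an extreme of its strain in 9 of the 10 genes, the highest for Asic1, Asic3, Trpm2, Trpm7 and Slc8a3 and the lowest for Asic2, Asic4, Trpm4 and Slc8a1. WSB_100 was the highest WSB animal for Asic2, Trpm7 and Slc8a1 and the lowest for Trpm2 and Trpm4. The summed level of striatal markers was 373 to 1954 CPM in CAST, the lowest being CAST_142, and 1122 to 1907 CPM in WSB. Of these markers, 0 of 9 were called by edgeR (0 at an unadjusted p under 0.05, 0 by DESeq2 or limma voom). The part of brain region in the values of CAST_142 and WSB_100 was not tested.

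Since levels of different genes can be set side by side only per length, TMM-scaled CPM was divided by the kilobases of merged exons. Slc8a2 was then the most abundant of the 10, at 65.3, 87.5 and 93.0 CPM per kilobase in CAST and 67.4, 78.8 and 94.2 in WSB (lowest, median and highest). Asic2 came next, with medians of 52.6 in CAST and 50.7 in WSB, followed by Asic1, at 16.1 to 22.2 in CAST and 16.02 to 18.9 in WSB, and Slc8a3 with medians of 13.9 in CAST and 13.4 in WSB. In CAST these 4 genes did not overlap. In WSB the highest Asic2 animal, at 69.8, passed the lowest Slc8a2 animal, although Slc8a2 was above Asic2 in 6 of 6 animals.

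Per kilobase of merged exons, Asic4, Trpm7 and Slc8a1 formed a group that the spread between animals did not order. Their medians were 7.69, 6.86 and 6.71 CPM per kilobase in CAST and 8.88, 7.35 and 7.49 in WSB. Trpm2 followed, with 5.22 in CAST and 4.32 in WSB, and overlapped all 3 in CAST only. Trpm4 had 2.68 in CAST and 2.14 in WSB, and Asic3 was far below all others, with 0.171 in CAST and 0.288 in WSB. The highest Asic3 animal of each strain, 0.270 in CAST and 0.501 in WSB, was below the lowest Trpm4 animal, 2.01 in CAST and 1.44 in WSB.

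**Figure D3:**
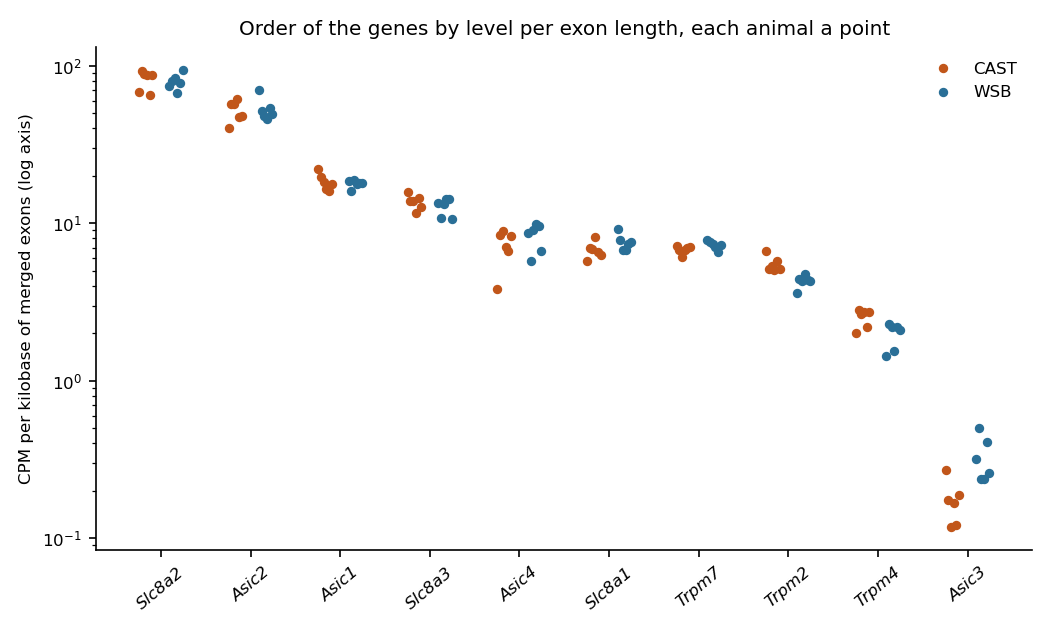
Level of each gene in TMM-scaled CPM per kilobase of merged exons (vertical log axis), 1 point per animal, with the genes in falling order of their mean over 12 animals. By this length Slc8a2 leads, Asic4, Slc8a1 and Trpm7 share a level, and Asic3 is lowest in both strains.

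The order rests on exon length, and the way reads were counted bears on that choice. Of the protein-coding genes whose whole body sits within other genes while at least 90% of their exon bases miss other exons, 852 of 858 were listed at 0 (99.3%), against 2269 of 20657 other protein-coding genes (11%). Whether intronic reads were counted for the 10 genes was not tested. Per kilobase of gene body, Asic2, whose body spans 1088289 bases, had rank 9 of 10 at 0.206 CPM per kilobase over all animals. Slc8a2 stayed at rank 1, at 13.6, and Asic3 at rank 10, at 0.136. The group of Asic4, Trpm7 and Slc8a1 held only per kilobase of merged exons. Per coding kilobase, Slc8a1 was at 37.45 to 53.1 CPM in CAST and 43.5 to 59.6 in WSB. Trpm7 was at 12.4 to 14.6 in CAST and 13.3 to 15.7 in WSB. Asic4 was at 6.455 to 14.9 in CAST and 9.64 to 16.6 in WSB. Per kilobase of gene body, Slc8a1 was below both, at 0.298 to 0.423 in CAST and 0.346 to 0.475 in WSB. Strain differences of a gene are the same under any length.

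The share of each gene in its family's summed level was taken per kilobase of merged exons. Slc8a2 supplied a median of 81.3% of the exchangers' summed level in CAST and 79.4% in WSB. Asic2 supplied 67.3% of the acid-sensing family in CAST and 66.2% in WSB, Asic1 supplied 22.9% in CAST and 23.1% in WSB, and Asic3 supplied 0.201% in CAST and 0.337% in WSB. Per kilobase of gene body Asic1, at 3.38 CPM, was above Asic2, at 0.206 CPM, so the order of the acid-sensing genes depends on the length used. Trpm7 supplied a median of 46.3% of the 3 Trpm genes in CAST, against 53.2% in WSB, and its highest CAST share, 47.3%, was below every WSB share. This share also depends on Trpm2 and Trpm4, both called higher in CAST, and Trpm7 itself was not called. Trpm2 supplied 34.4% to 42.0% in CAST and 28.2% to 35.7% in WSB.

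Ratios of reads within a library need no scaling between libraries, and 7 of them were compared by an exact two-sided test that permuted strain. For Trpm2 per Trpm7 read, the lowest, median and highest ratios were 0.800, 0.873 and 1.02 in CAST, against 0.512, 0.646 and 0.744 in WSB. The ratio was higher in 6 of 6 CAST animals than in any WSB animal, by 1.37-fold (log2 0.45, exact permutation p = 0.002165, the smallest that 6 against 6 allows; adjusted p = 0.01515 over the 7 ratios). Without CAST_142 and WSB_100 it was 0.34.

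The ratio of Trpm4 to Trpm7 was 0.268, 0.378 and 0.412 in CAST and 0.178, 0.278 and 0.322 in WSB (lowest, median and highest). It was 1.39-fold higher in CAST and above the WSB median in 5 of 6 CAST animals, but missed the threshold after adjustment (exact permutation p = 0.0195, adjusted p = 0.0505). Without CAST_142, which had the lowest CAST ratio, its log2 difference was 0.55 (exact permutation, adjusted p = 0.0202). The Asic3 to Asic2 ratio had a log2 difference of -0.86 (exact permutation p = 0.0217, adjusted p = 0.0505) and, without CAST_142, of -1.07 (exact permutation, adjusted p = 0.01515).

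The other 4 ratios also missed the threshold after adjustment, and their strain ranges overlapped. By exact permutation, the adjusted p was 0.185 for Slc8a2 to Slc8a1 (log2 difference 0.19) and for Slc8a3 to Slc8a1 (0.27, and 0.15 without CAST_142 and WSB_100), 0.424 for Asic4 to Asic2 (-0.19) and 0.749 for Asic1 to Asic2 (0.067). Asic1 to Asic2 turned to -0.062 without CAST_142 and to -0.0051 without WSB_100.

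**Figure D4:**
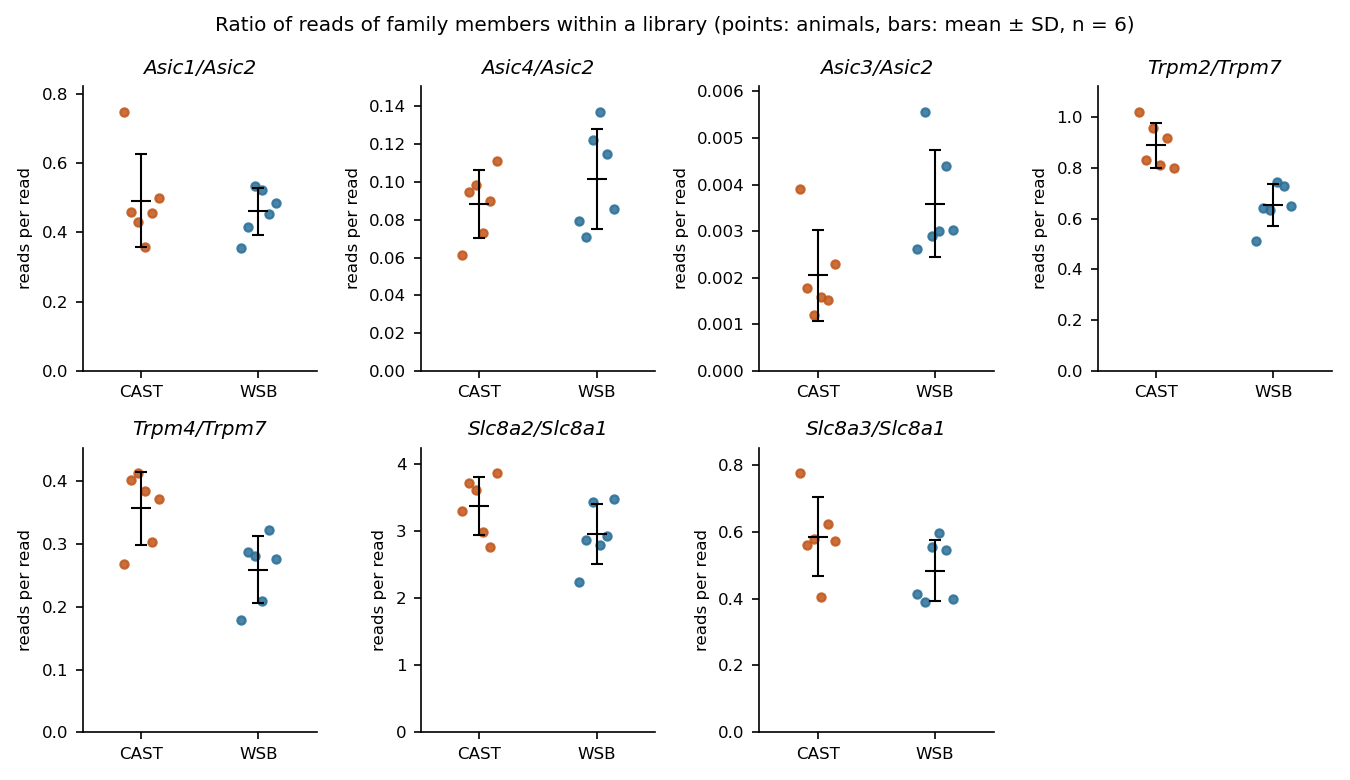
Reads of a gene per read of a relative in the same library (vertical axes from 0), 1 point per animal, CAST left and WSB right, bars for mean ± SD (n = 6). The Trpm2 to Trpm7 ratio, 0.800 to 1.02 in CAST and 0.512 to 0.744 in WSB, is the only pair of ranges without overlap.

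Trpm2 lies on chromosome 10 (77907722 to 77970563, minus strand, GRCm38), Trpm4 on chromosome 7 (45302632 to 45333780, minus strand) and Asic3 on chromosome 5 (24413392 to 24417835, plus strand). The nearest tested protein-coding genes gave these values. On either side of Trpm2, Lrrc3 had a log2 difference of 0.12 (edgeR adjusted p = 0.598) and 1810043G02Rik was lower in CAST at -0.18 (edgeR adjusted p = 0.00706). Beside Trpm4, Slc6a21 and Hrc, both at most 1.165 CPM in any animal, had log2 differences of -0.44 and -0.20 (edgeR adjusted p = 0.316 and 0.330). Beside Asic3, Abcb8 was lower in CAST at -0.18 (edgeR adjusted p = 0.022), a call lost without WSB_135 or WSB_147 at an adjusted p of at most 0.0504. Cdk5, which lies 406 bases past Asic3, was at -0.099 (edgeR adjusted p = 0.063), and without CAST_142 and WSB_100 it was at -0.13 and called (edgeR adjusted p = 0.0107). Of the exon bases of the 10 genes, 81.9% (Asic4) to 100% lay outside other genes, and at most 1.64% of their 32-base words (Trpm2) also occurred in transcripts of another gene.

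The genes most like Trpm2 over the 12 animals, by root mean square difference of mean-centred log2 CPM among 12709 protein-coding genes, were Pkm (0.0586), Gstm1 (0.0621) and Tmed4 (0.0622). Of these, 34% of the 32-base words of Pkm and 28.2% of those of Gstm1 also occur in transcripts of other genes, which leaves their counts uncertain. For Asic3 they were Lat2 (0.265), Rad54l (0.267) and Naalad2 (0.271), each farther off than those of Trpm2. For Trpm4 they were Pamr1 (0.109), 3110082I17Rik (0.126) and Pkdcc (0.132). Only 63.7% of the exon bases of Lat2 and 63.9% of those of Rad54l lie outside other genes. Asic3 had at most 48 reads in any animal, and the part of low counts in its distances was not tested. Likeness over these animals includes the strain difference that each gene shares with its match.

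A wider set of genes of acid, sodium, magnesium and calcium handling placed the 10 genes in context. Of 168 such genes, 150 were tested and 55 were called by edgeR (36.7%), 33 higher and 22 lower in CAST, against the 42.7% of all genes tested. Their median size of log2 difference was 0.20, close to the 0.22 of all genes tested, and 7 of the called genes differed by at least 2-fold. Without CAST_142 and WSB_100, 59 were called, and the share of all genes tested that were called rose as well, to 46.6% (8624 of 18511). The counts by list then differed, among others, for carbonic anhydrases (1 higher, 3 lower), calpains (1 higher, 4 lower) and sodium-proton exchangers (1 higher). They also differed for store-operated entry genes (1 lower), calcium ATPases (2 higher) and calcium release channels (2 higher).

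The nearest relatives of the 10 genes are too few for their calls to be told apart from the share of all genes. Of 4 tested further Asic and Trpm genes, 0 were called by edgeR, against 42.7% of all genes tested. Among these 4 genes, 0 had an unadjusted p under 0.05 and 0 were called by DESeq2 or limma voom. The most abundant of them, Trpm3, was at 102 to 206 CPM in CAST and 92.0 to 151 CPM in WSB. Its log2 difference was -0.085, and -0.29 without CAST_142 and WSB_100 (edgeR adjusted p = 0.728 and 0.0690). The epithelial sodium channel subunit Scnn1a was at -0.53 (edgeR adjusted p = 0.070), and without CAST_142 and WSB_100 at -0.70 (edgeR adjusted p = 0.00947). With all animals, Scnn1a was called by DESeq2 but not by limma voom. Partners of acid-sensing channels had 1 of 8 higher and 1 lower: Ripk1, a kinase reported to bind Asic1, at 0.58 (edgeR adjusted p = 8.6e-05), and Pick1, a scaffold of Asic1 and Asic2, at -0.21 (edgeR adjusted p = 0.000562). Pick1 shares 19.2% of its 32-base words with other genes.

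Genes that sense or set pH were called in both directions. Of proton-sensing receptors, 1 of 2 tested was called, Gpr4, lower at -0.49 (edgeR adjusted p = 0.00934). Sodium-proton exchangers had 2 of 9 called, both higher: Slc9a3, at 3.04 to 13.1 CPM in CAST and 1.30 to 2.14 CPM in WSB, and Slc9a7 at 0.16, a call lost when any of 6 animals was left out and without CAST_142 and WSB_100 (0.14, edgeR adjusted p = 0.0762). Bicarbonate transporters had 3 of 10 higher and 1 lower, among them Slc4a8, a sodium-driven exchanger of neurons, at 201.8 to 233 CPM in CAST and 170 to 191 CPM in WSB. Slc4a9 was higher too, at 0.378 to 1.06 CPM in CAST and at most 0.121 CPM in WSB, and did not pass the filter on low counts on either lane alone. Carbonic anhydrases had 3 of 12 higher and 1 lower, Car5b being lower at -0.59. Car9 was higher at 1.96, with its top value of 4.04 CPM in CAST_142, and was at 1.37 without CAST_142 and WSB_100.

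Around the Trpm genes, the enzymes of the Trpm2 ligand had 2 of 7 tested higher and 1 lower. Parg, which releases ADP-ribose from its polymer, was at 51.1 to 58.0 CPM in CAST and 64.8 to 76.6 CPM in WSB, a log2 difference of -0.40 (edgeR adjusted p = 1.11e-05). Parp1, which builds the polymer, was not called at -0.043 (edgeR adjusted p = 0.482). Sirt1, a deacetylase whose product is a form of ADP-ribose, was higher at 0.30 (edgeR adjusted p = 0.000492).

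Partners of Trpm4 had 2 of 7 higher and 2 lower. Abcc9, also a mural cell marker, was lower at -0.57 (edgeR adjusted p = 3.24e-05). Abcc8, which encodes the sulfonylurea receptor SUR1 that joins Trpm4 in injured brain, was higher at 0.44 (edgeR adjusted p = 0.0433), but its call was lost in 9 of 12 runs that left out an animal, and it was at 0.23 (edgeR adjusted p = 0.111) without CAST_142 and WSB_100. Of mural cell markers, 4 of 7 were called lower and 0 higher by edgeR, against 21.2% of all genes tested called lower. Of these markers, 4 had an unadjusted p under 0.05 and 4 were called by DESeq2 and by limma voom. Acta2, Myh11 and Kcnj8 were not called, at 0.34, 0.028 and -0.075 (edgeR adjusted p = 0.101, 0.885 and 0.736). The markers summed to 115 to 137 CPM in CAST and 204 to 228 CPM in WSB. Means of Rgs5 and Vtn were 45.8 and 22.3 CPM in CAST, against 117 and 41.2 CPM in WSB. The part of the mural cell markers in the Trpm4 and Abcc9 values was not tested.

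Magnesium transporters, beside Trpm7, had 4 of 11 higher and 2 lower. The leading ones were Mrs2 of mitochondria at 0.34 and Cnnm3 at 0.28, though only 34.1% of the Mrs2 exon bases lie outside other genes. Trpc channels had 2 of 6 higher and 1 lower, with Trpc6 at 0.62 and Trpc4 at -0.39. Of 4 tested Trpv channels, Trpv2 was lower at -0.59. Store-operated entry genes had 1 of 5 higher and 1 lower, Orai1 at 0.25, a call lost without any of 5 animals, and Orai2 at -0.22. Without CAST_142 and WSB_100, Orai1 was at 0.22 (edgeR adjusted p = 0.0634).

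Beside the 3 exchangers, the potassium-dependent and mitochondrial exchangers had 2 of 6 higher and 1 lower, with Slc24a5 at -0.54 and Slc24a1 at 0.78, the second of these lost in 7 of 12 runs that left out an animal. Calcium ATPases had 1 of 9 called, Atp2c2, a pump of the secretory pathway, at 2.46 to 4.79 CPM in CAST and 0.909 to 1.33 CPM in WSB. Sodium pump subunits had 4 of 10 higher and 2 lower: Atp1b3 was higher at 0.61, though 15.8% of its 32-base words are shared with other genes, and Atp1a4 was lower at 0.0452 to 0.261 CPM in CAST, against 0.664 to 1.07 CPM in WSB. The mitochondrial uniporter complex had 3 of 7 higher, among them Mcur1 at 0.28, and 1 lower.

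Calpains with their inhibitor calpastatin had 1 of 7 higher and 2 lower. Capn2 was at -0.33, and the calpastatin gene, whose symbol is Cast, was at -0.40, a call lost without CAST_200 or WSB_120. Calcium release channels had 1 of 6 called, Ryr1 at 0.52. Chloride cotransporters and volume channels had 1 of 11 higher, Lrrc8d at 0.23, and 1 lower, Slc12a3 at -0.86. Pannexins and P2X receptors had 3 of 8 lower and 0 higher by edgeR, with 4 at an unadjusted p under 0.05 and 3 called by DESeq2 and by limma voom. Of the genes named from these lists, Capn2 (52.3%), Slc24a5 (56.1%), P2rx6 (58.7%), Trpm3 (61.9%), Car9 (68.9%) and Trpc6 (71.1%) also have only the shares given of their exon bases outside other genes, whose reads cannot be told apart without strand. P2rx6 was at -0.41, and P2rx3 at -0.26 was lost in 9 of 12 runs that left out an animal and without CAST_142 and WSB_100 (-0.24, edgeR adjusted p = 0.058).

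**Figure D5:**
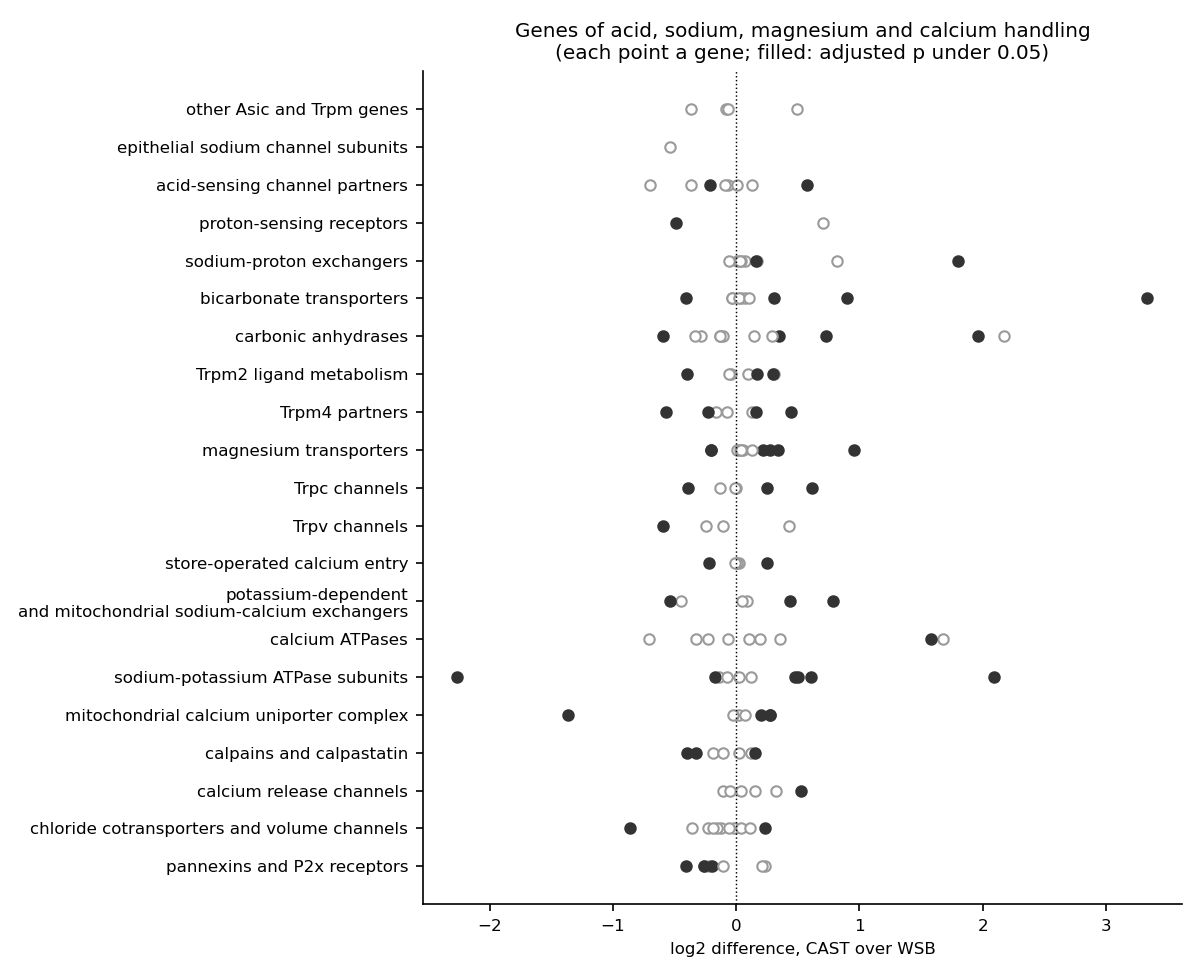
Log2 difference, CAST over WSB (horizontal axis), of each tested gene in 21 lists of acid, sodium, magnesium and calcium handling (rows), where filled points mark an edgeR adjusted p under 0.05. Filled points lie on both sides of 0, with 33 higher and 22 lower in CAST.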

How the data were processed

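RNA of 12 mouse brains (6 CAST, 6 WSB) was sequenced on lanes 5 and 6. The deposited values are whole-number read counts per gene, not normalized. Tools listed in the submitters' processing notes are HTSeq, TopHat2 2.1.1, DESeq2 and cutadapt, in no stated order; genome build, annotation, strand setting and read length: not given in the sources used here. Counters that name no gene (5 per file) stayed out of library sizes, and 62.9% to 68.0% of counted alignments were in genes. Alignments that were not unique made up 15.62% to 16.14% in CAST and 16.99% to 17.51% in WSB. Mapping to a reference of another strain can lower counts of divergent genes, and more so in the more divergent strain. Its part was not tested.

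Lanes were summed per animal, and animals are the replicates as the labels number them. Symbols, coordinates and lengths came from GENCODE M21 (GRCm38), which held 53360 of the 53465 identifiers. Strains were compared with edgeR 4.0.16 (R 4.3.3; quasi-likelihood, robust, TMM, default filter by strain), fold changes being CAST over WSB and calls made at a Benjamini-Hochberg adjusted p under 0.05. Ratios had 0.5 reads added and were tested by exact permutation (scipy 1.17.1). Likeness used protein-coding genes whose mean log2 CPM reached 1. Alternatives were DESeq2 1.42.0 and limma 3.58.1 voom, other scalings, no filter, each lane, each animal left out, and CAST_142 with WSB_100 left out. The fit was tested on simulated data. The 10 genes and all lists were chosen with earlier results of these data known. Named were the 10 genes; per list, up to 2 called genes of smallest p, or the most abundant; the 3 most alike genes and the neighbours of the 3 genes of smallest p; and marker genes beside results. Some genes the rule names are not reported here. Parp1, Abcc8 and the lists' further genes outside that rule were chosen after their values were seen.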

Additional observations from a re-analysis of the deposited data

Results flagged for a closer look

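Among 34 sets of 6 animals searched (the 10 genes and the 7 ratios in each strain), 3 held an animal set far from the rest; chance gives about 1 in 20. In WSB, Asic1 was at 91.9 CPM in WSB_120, and the nearest other WSB animal was at 102.5 CPM. Also in WSB, Asic2 was at 297.5 CPM in WSB_100, against 228.8 CPM in the next animal. In CAST, the ratio of Asic1 to Asic2 reads was 0.7475 in CAST_142, against 0.5001 in the next. WSB_100 and CAST_142 are also the libraries set apart by brain region genes, with Doc2g at 13.9 CPM and Cbln3 at 344 CPM; the part of region in these values was not tested.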

How the results depend on the processing

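Leaving out each animal gave calls for 2 to 4 of the 10 genes, 7313 to 8726 of all genes and 44 to 57 of the companion genes. Lanes 5 and 6 alone gave 6616 and 6567 of all genes and 51 and 43 of the companion genes, and no filter gave 9066 of all genes. Of 200 log2 differences recomputed for the 10 genes, 185 kept direction and call, and of 112 ratios, 105 did. On lane 6 alone Asic3 was at -0.75 and not called. Leaving out each animal gave Trpm4 0.28 to 0.42, Trpm7 -0.13 to -0.068, Slc8a1 -0.23 to -0.10, Asic1 -0.022 to 0.082, Asic2 -0.089 to 0.059, Asic4 -0.29 to -0.071, Slc8a2 -0.0058 to 0.10, Asic3 per Asic2 -1.07 to -0.73, Trpm4 per Trpm7 0.37 to 0.55, and Asic1 per Asic2 -0.062 to 0.15. Without CAST_142 and WSB_100, Asic1 was at -0.013, Asic2 at 0.13, Asic1 per Asic2 at -0.13, Asic3 per Asic2 at -1.15 and Trpm4 per Trpm7 at 0.45, the last 2 past the threshold (exact permutation, adjusted p = 0.0278 and 0.037). Per kilobase of gene body, mean levels over the 12 animals were 3.38 for Asic1, 0.206 for Asic2, 0.882 for Asic4, 0.971 for Trpm2, 0.779 for Trpm4, 0.942 for Trpm7, 0.370 for Slc8a1, 13.6 for Slc8a2 and 0.522 for Slc8a3 CPM. Per coding kilobase they were 62.0 for Asic1, 132.6 for Asic2, 0.381 for Asic3, 13.0 for Asic4, 13.5 for Trpm2, 6.67 for Trpm4, 14.3 for Trpm7, 46.5 for Slc8a1, 153.3 for Slc8a2 and 25.4 for Slc8a3 CPM; these differ by construction, through the length. Other causes were not tested. Depth limits Asic3 most, at 12 to 29 reads in CAST and 19 to 48 in WSB. No paired analysis was possible because the strains share no animal numbers.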
